A study of Sus scrofa with 92 samples.

Results

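Liver biopsies of carbohydrate prefed (CPF) pigs were set against those of fasted (FS) pigs at Baseline (B), the biopsy taken once the animal had stabilised after instrumentation and before shock. The comparison held 20 of the 92 libraries of the series, 5 from CPF animals and 15 from FS animals, each from a different animal. All animals were male Yorkshire-Landrace pigs fasted overnight, and the CPF animals alone then received a bolus of corn syrup, a mixture of sugars, before induction. Every animal had been anaesthetised, instrumented and splenectomised, so both groups were surgical animals and neither was fed a meal. Polytrauma, haemorrhage and resuscitation followed later, with further biopsies at FR2, FR8 and FR20, named for 2, 8 and 20 hours of full resuscitation. Of the animals compared, 2 of 5 CPF and 3 of 15 FS were labelled as having died.

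The libraries were chosen by a measured value. Of 23 Baseline libraries, 3 FS libraries were left out because they held almost no albumin, the main plasma protein made by liver. Albumin was at 0.197 to 52.7 CPM (counts scaled to a fixed library total, here the library's own) in those 3, against 59451 CPM in the lowest and 144147 CPM in the highest FS library kept, and 88577 to 139731 CPM in the CPF libraries. The other 8 identified hepatocyte markers, which played no part in that choice, together summed to 59413 to 66507 CPM in CPF and 39577 to 71359 CPM in the FS libraries kept, against 2.62 to 155 CPM in the 3 left out. Of the libraries kept, that of FS animal 10 was lowest in albumin and that of FS animal 4 in the other 8 markers. Totals per library ran from 8444057 to 12036356 counts in CPF and from 6877117 to 14642156 in FS, and no pair of the 190 possible pairs agreed within sampling noise. The biopsies are bulk tissue, in which fewer cells of a type and less RNA per cell cannot be told apart.

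The liver takes up sugar from the portal blood after feeding and releases glucose during fasting. Insulin, which rises after a meal, favours glycogen and lipid synthesis and holds down gluconeogenesis, fatty acid oxidation and amino acid breakdown, which are characteristic of the fasted liver.

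Of 11688 genes tested at Baseline, 3 were higher in CPF animals and 0 were lower, which is 0.0257% of the genes tested. A gene was called at an adjusted p under 0.05 (edgeR's quasi-likelihood test, Benjamini-Hochberg) and a log2 fold change, CPF over FS, of at least 1 in size. They included NADK2 (the mitochondrial NAD kinase, which makes NADP inside mitochondria) and SHROOM3 (an actin-binding protein that shapes epithelial cells). A further gene without a symbol, ENSSSCG00000029457, passed the adjusted p alone, which makes 4 genes or 0.0342%. At an unadjusted p under 0.05 there were 496 genes on the CPF side (4.24%) and 399 on the FS side (3.41%), together 7.66% of those tested. Over all genes the median log2 fold change was −0.03 and the median size of the log2 fold change was 0.18. The p-values weigh each difference against the spread between these animals.

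The 3 calls stood in every fit that left out 1 of the 20 libraries, but the number of genes beside them depended on single libraries. There were 18 calls without FS animal 20, 11 without FS animal 10 and 10 without CPF animal 18. DESeq2 called 31 genes on the same libraries and edgeR's likelihood ratio test 25, each including the 3, of which 11 and 3 were lower in CPF. With the 3 libraries without albumin put back, 1 gene was called, and it was neither NADK2 nor SHROOM3.

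NADK2 (ENSSSCG00000016836) was separated without overlap. Scaled by edgeR's TMM method, it was at 317, 366, 448, 582 and 258 CPM in CPF animals 3, 7, 8, 13 and 18, against 63.2 to 203 CPM in FS with a median of 114. The lowest CPF library, that of animal 18, was above the highest FS library, that of animal 20. The log2 fold change was 1.70 (standard error 0.20), 3.24-fold, and the adjusted p in edgeR's quasi-likelihood test was 7.56e-05. The animal codes end in 2 digits that the labels do not explain, and the ratio was also taken among animals with the same ending. Within codes ending in 10, 12 and 09 the log2 ratio of the means plus 1 CPM was 1.95, 1.48 and 1.40. These rest on 2 CPF against 6 FS, 2 against 5 and 1 against 2 libraries, and the set ending in 11 held FS animals alone.

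SHROOM3 (ENSSSCG00000008984) was also separated without overlap, at a lower level. The CPF libraries 3, 7, 8, 13 and 18 were at 42.8, 20.9, 42.8, 30.6 and 18.2 CPM and the FS libraries at 6.24 to 16.4 CPM with a median of 10.19. Its log2 fold change was 1.47 (standard error 0.20), 2.77-fold, with an adjusted p of 9.84e-04 by edgeR's quasi-likelihood test. Its log2 ratio of the means plus 1 CPM was 0.92, 1.85 and 1.11 within codes ending in 10, 12 and 09. SHROOM3 is one of the contractile and cytoskeletal genes that the study itself groups from these samples, which are described below. With all 18 FS libraries, SHROOM3 was at a log2 fold change of 1.73 with an adjusted p of 0.639 and NADK2 at 1.92 with 0.118, so neither was called.

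ENSSSCG00000029457 showed a small difference with little scatter. It was at 138, 141, 120, 150 and 109 CPM in CPF animals 3, 7, 8, 13 and 18 and at 52.6 to 103 CPM in FS, with a median of 77.7. The groups did not overlap, and the log2 fold change was 0.83 (standard error 0.14) with an adjusted p of 0.00949 in edgeR's quasi-likelihood test.

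**Figure D1:**
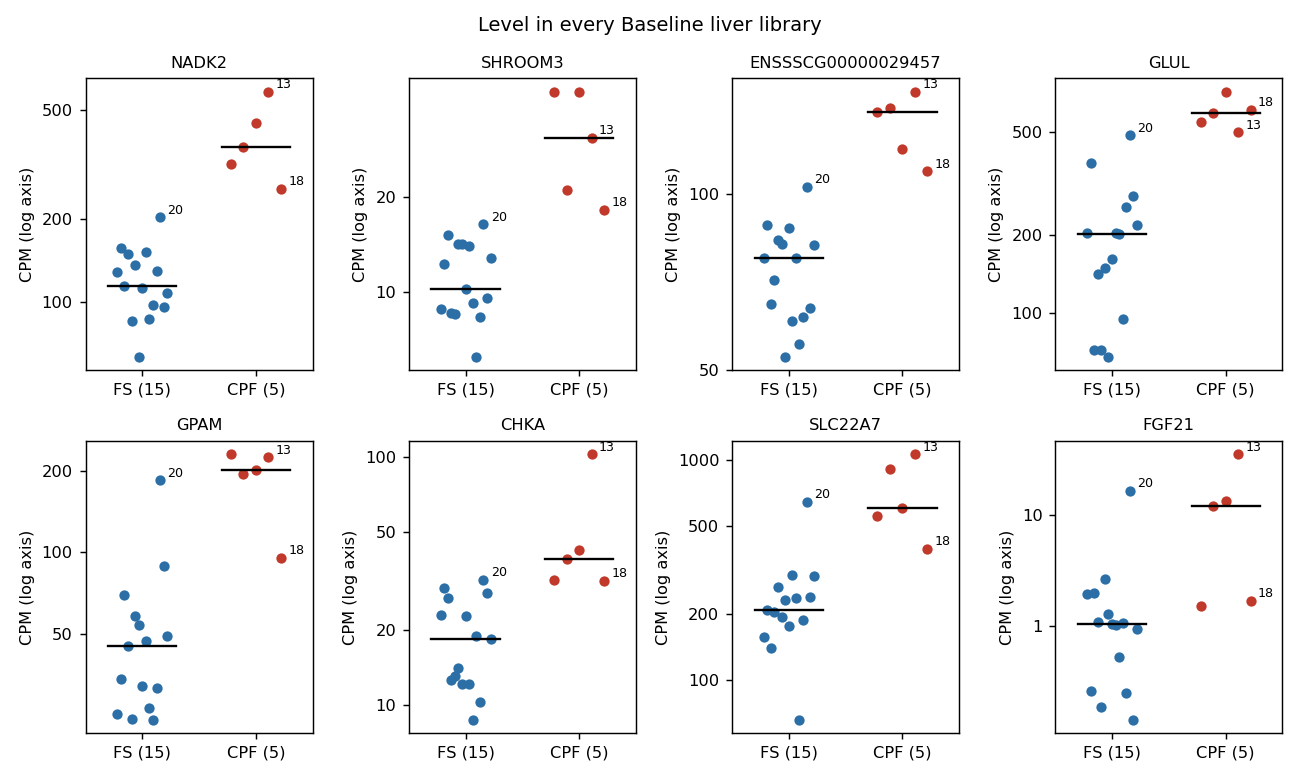
CPM scaled by TMM (log axis) of 8 genes in each of the 15 FS libraries (blue) and 5 CPF libraries (red) at Baseline, with a bar at each group's median and the numbers of FS animal 20 and CPF animals 13 and 18. NADK2, SHROOM3, ENSSSCG00000029457 and GLUL show no overlap, and in GPAM, CHKA, SLC22A7 and FGF21 the lowest CPF library lies below FS animal 20.

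In 5 genes of the 11688, or 0.0428%, had every CPF library above every FS library. Beside NADK2, SHROOM3 and ENSSSCG00000029457 these were GLUL and MSH4, a meiotic mismatch repair protein that was at 49.5 to 65.0 CPM in CPF and 33.5 to 46.0 CPM in FS. A further 3 genes, 0.0257%, had every CPF library below every FS library. GOT1, the cytosolic aspartate aminotransferase that moves nitrogen between amino acids, was at 95.7 to 118 CPM in CPF and 120 to 399 in FS. MTTP, which loads lipid onto apolipoprotein B, was at 262 to 307 CPM against 315 to 746, and EAF1, a transcription elongation cofactor, at 46.2 to 53.6 against 55.6 to 171. None of these 3 was called, with adjusted p of 0.197, 0.211 and 0.249 in edgeR's quasi-likelihood test. GLUL, MSH4, GOT1, MTTP and EAF1 were singled out after their values were seen.

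A set of 8 genes of sugar and lipid metabolism joined genes that the study groups under carbohydrates to genes known from earlier results of these data. Each was tested over all 15504 ways of choosing 5 of the 20 libraries, on log2(CPM + 1). This exact permutation test was 2-sided, and its p was adjusted over the 8 genes. Both kinds were chosen from these same samples, so the choice is not independent evidence, and the p-values do not allow for it. GPAM and CHKA had the same adjusted p of 5.16e-04 in this exact test, with unadjusted values of 1.29e-04 and 1.93e-04, where the smallest possible is 6.45e-05.

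GPAM (ENSSSCG00000010631) encodes the mitochondrial enzyme that starts glycerolipid synthesis by acylating glycerol-3-phosphate. It was at 230, 195, 202, 224 and 95.3 CPM in CPF animals 3, 7, 8, 13 and 18, against 24.1 to 185 CPM in FS with a median of 44.9. In GPAM, 4 CPF libraries lay above every FS library and animal 18 lay above 14 of 15, with FS animal 20 the exception. The difference was 2.00 on the log2(CPM + 1) scale, and the fit across all genes gave a log2 fold change of 1.84 (standard error 0.35) with an adjusted p of 0.0539, just outside the threshold of edgeR's quasi-likelihood test. GPAM's log2 ratio of the means plus 1 CPM was 1.59, 2.35 and 0.74 within codes ending in 10, 12 and 09.

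CHKA (ENSSSCG00000012889), choline kinase alpha, catalyses the first step from choline to phosphatidylcholine. It was at 32.0, 38.8, 42.1, 103 and 31.7 CPM in the 5 CPF libraries and at 8.73 to 32.1 CPM in FS, with a median of 18.5. Of the CPF libraries, 3 lay above every FS library, and the other two lay just below FS animal 20. The log2 fold change was 1.39 (standard error 0.28) with an adjusted p of 0.0730 (edgeR, quasi-likelihood), and 0.94 with an adjusted p of 0.587 without CPF animal 13. CHKA's log2 ratio of the means plus 1 CPM was 1.64, 1.08 and 0.41 within codes ending in 10, 12 and 09.

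FGF21 (ENSSSCG00000003140), a hormone that the liver secretes into the blood, was uneven within both groups. It was at 1.499, 12.2, 13.6, 35.6 and 1.67 CPM in CPF animals 3, 7, 8, 13 and 18, and 0.14 to 16.6 CPM in FS with a median of 1.05. Only animal 13 lay above every FS library. The highest FS library was again that of animal 20, with the next far below it, and CPF animals 7 and 8 lay between those FS libraries. The exact permutation test gave a difference of 1.97 (adjusted p = 0.0135), whereas the fit across all genes gave a log2 fold change of 2.64 (standard error 0.75) with an adjusted p of 0.234. Leaving out FS animal 20 brought that fit to 3.65 with an adjusted p of 0.00183, and leaving out CPF animal 13 to 1.82 with 0.902.

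In this set 4 genes did not pass the exact permutation test. PYGM (muscle glycogen phosphorylase), HK2 (hexokinase 2), ENO3 (muscle enolase) and GPD2 (mitochondrial glycerol-3-phosphate dehydrogenase) had adjusted p of 0.597, 0.597, 0.775 and 0.597. All were low, with medians in CPF and FS of 1.60 and 1.14 CPM for PYGM, 0.0764 and 0.0878 for HK2, 1.49 and 1.41 for ENO3, and 2.67 and 3.38 for GPD2. HK2 fell under the expression filter and was not among the 11688 genes.

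Beyond the 3 called genes, 20 were called by both DESeq2 and the likelihood ratio test but not by the quasi-likelihood test. Of these 20, 14 had a symbol, and they were singled out after their values were seen. They included GPAM and CHKA. SLC22A7, an organic anion transporter of the hepatocyte membrane, was at 393 to 1061 CPM in CPF and 65.8 to 646 CPM in FS, with a log2 fold change of 1.58 (standard error 0.30) and an adjusted p of 0.0523 by the quasi-likelihood test. The CPF libraries of animals 7 and 13 were above every FS library.

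GLUL (glutamine synthetase) joins ammonia to glutamate and marks the hepatocytes around the central vein. It was at 545, 589, 714, 498 and 609 CPM in CPF animals 3, 7, 8, 13 and 18 and at 67.9 to 485 CPM in FS, with a median of 202. The CPF libraries were close together and all above the FS range, whose top was again animal 20. The log2 fold change was 1.57 (standard error 0.33) with an adjusted p of 0.0730 in edgeR's quasi-likelihood test. ASNS, which makes asparagine, was at 18.3, 26.8, 37.1, 21.1 and 5.35 CPM in CPF animals 3, 7, 8, 13 and 18, and 3.22 to 16.7 CPM in FS, with a log2 fold change of 1.33 (standard error 0.32) and an adjusted p of 0.140. Only animal 18 lay within the FS range.

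The other genes of this set with a symbol were these. CA2, the cytosolic carbonic anhydrase, was at 54.4 to 152 CPM in CPF and 16.2 to 86.1 CPM in FS, with a log2 fold change of 1.28. PFKFB3, which makes the glycolytic activator fructose 2,6-bisphosphate, was at 0.56 to 8.96 CPM against 0.15 to 2.55, with a log2 fold change of 2.17, and CPF animals 3 and 18 lay inside the FS range. TCAIM (a mitochondrial protein), PALMD (palmdelphin), PAQR9 (of the progestin and adipoQ receptor family), SKIL (a brake on TGF beta signalling), NOSTRIN (which traffics nitric oxide synthase) and FAM234B had log2 fold changes between 1.07 and 1.58. SKIL was at 148 CPM in CPF animal 13 and 17.2 to 48.7 CPM in the other CPF libraries, against 12.7 to 48.3 CPM in FS. Its log2 fold change was as low as 0.59 when 1 library was left out. NOSTRIN's log2 ratio of the means plus 1 CPM was 1.71, 0.11 and 0.42 within codes ending in 10, 12 and 09. CENPQ, a kinetochore protein, was the 1 gene with a symbol on the FS side, at 1.74 to 4.36 CPM in CPF and 2.72 to 11.4 CPM in FS, with a log2 fold change of −1.10.

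The same few animals set the edges of these differences. In NADK2, SHROOM3 and ENSSSCG00000029457, FS animal 20 was the highest FS library and CPF animal 18 the lowest CPF library in 3 of 3, and CPF animal 13 was the highest CPF library in 2. Over 19 genes on the CPF side that DESeq2 and the likelihood ratio test both called, FS animal 20 was the highest FS library in 11 and CPF animal 18 the lowest CPF library in 10. Over all genes tested, FS animal 20 was the highest FS library in 5.52% and CPF animal 18 the lowest CPF library in 17.1%. FS animal 20 is labelled fasted and died, and its level of albumin, 121859 CPM, was within the range of the others. Why it was highest in these genes was not tested.

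**Figure D2:**
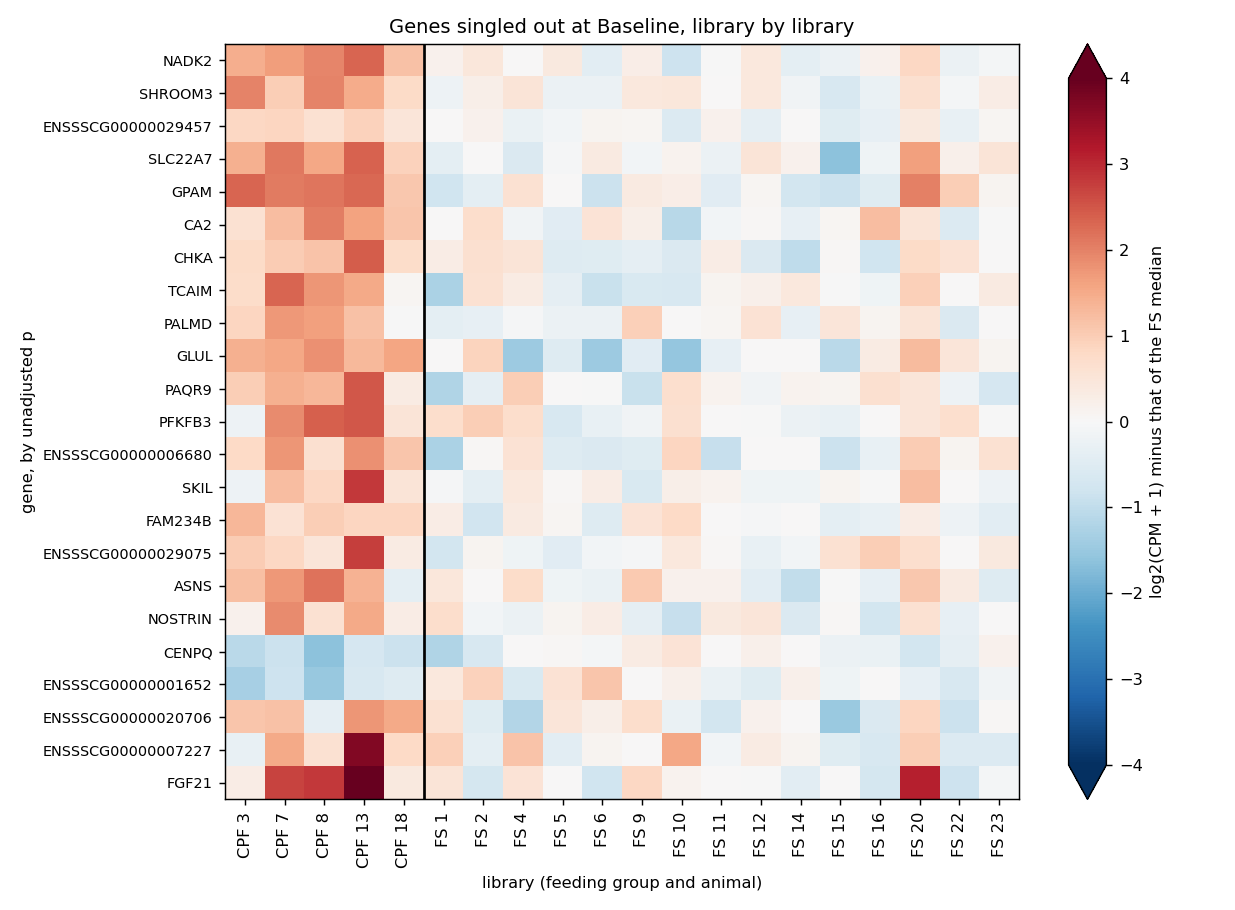
Colour gives log2(CPM + 1) minus that of the FS median for each gene singled out (rows, by unadjusted p) in the 5 CPF (left of the line) and 15 FS libraries at Baseline, with the scale ending at 4 on either side. CPF animals 7, 8 and 13 are darkest, CPF animal 18 is pale in most genes, and FS animal 20 is the one FS column with dark cells in GPAM and FGF21.

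Over the 24 genes described here from a list of ChREBP targets and hexose use, the median log2 fold change was 0.05, beside −0.03 over all genes. ChREBP is the transcription factor by which glucose switches on genes of glycolysis and lipid synthesis, and its gene MLXIPL was at 0.53 with an unadjusted p of 0.0588. None of the 24 was called, and 0 had an unadjusted p under 0.05. All list counts here leave out the 1 called gene that is not reported. The lowest of them was TXNIP, a glucose-induced inhibitor of glucose uptake, at −0.33, and the glucose transporter SLC2A2 was at −0.29. PFKFB2, an enzyme that makes and breaks down fructose 2,6-bisphosphate, was the highest of the 24, at 0.58 with an unadjusted p of 0.156.

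In the list of gluconeogenesis and glycogen, 18 of 25 members were tested, 0 were called, and the median was −0.02. In all 4 had an unadjusted p under 0.05, 2 in each direction. PPP1R3C, which brings protein phosphatase 1 to glycogen, was at 8.90, 122, 155, 462 and 5.57 CPM in CPF animals 3, 7, 8, 13 and 18 and at 2.36 to 130 CPM in FS, with a median of 9.36. Its log2 fold change of 2.42 had a standard error of 0.78 and an adjusted p of 0.356, and animals 8 and 13 alone lay above every FS library. Its relative PPP1R3B was at 2.00, with medians of 13.4 and 9.77 CPM. PCK1, the rate-limiting enzyme of gluconeogenesis, was at 1342, 1446, 2438, 101 and 3205 CPM in the 5 CPF libraries and at 1225 to 7247 CPM in FS, with a log2 fold change of −1.03 and an adjusted p of 0.636. CPF animal 13 was the single library far below all others in PCK1. SLC37A4, the glucose-6-phosphate transporter, was at −0.63.

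Insulin and fasting signalling gave 18 tested members of 26, 0 called and a median of −0.01. There were 2 at an unadjusted p under 0.05, both on the CPF side, beside 4.24% of all genes on that side. IGF1, the insulin-like growth factor, was highest at 0.77 (8.69 against 5.77 CPM in the medians) and INSR, the insulin receptor, lowest at −1.04. Their unadjusted p in edgeR's quasi-likelihood test was 0.0402 and 0.135. IGFBP1, a secreted binding protein that insulin is known to lower, was at −0.79 with medians of 1819 and 3327 CPM and an unadjusted p of 0.0542. None of these 3 genes passed the adjusted threshold.

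Lipid synthesis was led by GPAM. In the list of fatty acid synthesis and triglyceride assembly, 18 of 25 members were tested, GPAM was the 1 member with an unadjusted p under 0.05, and the median was 0.16. SCD, the stearoyl-CoA desaturase, was at 1.41 with a median of 1074 CPM in CPF and 203 in FS, but its FS libraries ran from 12.1 to 2384 CPM and its adjusted p was 0.680. FASN, the fatty acid synthase, was at −0.60, and ELOVL2, which elongates long polyunsaturated chains, was lowest at −0.73. The median of this list turned to between −0.04 and 0.18 as single libraries were left out.

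Cholesterol synthesis and uptake had 16 of 18 tested members above 0, of 26 listed, with a median of 0.33, 0 called, and 2 at an unadjusted p under 0.05. Over all genes, 5241 of 11688 were above 0. The 2 were FDPS, farnesyl diphosphate synthase, at 0.87 with medians of 556 and 280 CPM, and HSD17B7 at 0.65 with 113 and 60.9 CPM. IDI1, the isopentenyl diphosphate isomerase, was highest at 0.90, and INSIG1, which retains the sterol sensor in the endoplasmic reticulum, was lowest at −0.14. The list's median stayed between 0.24 and 0.41 when any 1 library was left out.

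Fatty acid oxidation and ketogenesis had 20 of 25 tested members below 0, of 30 listed, and a median of −0.18. None was called, and 5 had an unadjusted p under 0.05, all on the FS side, beside 3.41% of all genes on that side. Over all genes, 5241 of 11688 were above 0. CPT2, the inner membrane carnitine palmitoyltransferase, was at −0.76 with medians of 84.3 and 128 CPM. SLC25A20, the carnitine carrier, was at −0.67, CREB3L3, a fasting-induced transcription factor, at −0.90 and PPARA, the nuclear receptor that drives these genes, at −1.47 with medians of only 5.12 and 5.63 CPM. ACADVL was lowest at −2.62, at medians of 0.22 and 0.46 CPM, and ACAA2 highest at 0.43. ACADVL reached at most 0.85 CPM in CPF and 9.14 CPM in FS, so it passed the expression filter through FS libraries. A gene that passes in this way lies below 0. ACADVL is among the 5, so that count is not independent of the filter. Median values over the list were −0.29 to −0.13 without single libraries.

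Of the fibroblast growth factor 21 axis, all 6 members were tested, and none of the receptors or the co-receptor KLB was past 0.28 in size, with FGFR3 lowest at −0.03. Choline and phospholipid synthesis had 8 of 14 members tested and a median of −0.05, with CHKA its 1 member at an unadjusted p under 0.05 and BHMT, which remethylates homocysteine with betaine, lowest at −0.26. Among 17 tested of 24 apolipoprotein and lipoprotein genes the median was −0.09, from LIPG, endothelial lipase, at −1.29 to ABCA1, the cholesterol exporter, at 0.41.

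Genes that dispose of nitrogen and genes of amino acid supply were on separate lists. In the list of the urea cycle and amino acid breakdown, 21 of 25 tested members were below 0, of 29 listed, with a median of −0.46. None was called, and 5 had an unadjusted p under 0.05, all on the FS side, beside 3.41% of all genes on that side. GPT2, the mitochondrial alanine aminotransferase, was lowest at −1.99, at 5.69 to 31.0 CPM in CPF and 5.77 to 184 CPM in FS. Its sign was not the same in every code ending, with a log2 ratio of the means plus 1 CPM of −2.65, 0.27 and −2.35 within 10, 12 and 09. GOT1 was at −0.84, AGXT, which transaminates glyoxylate, at −0.90, AASS, which degrades lysine, at −0.84 and GLS2, the liver glutaminase, at −0.70. The ammonia-fixing CPS1 was at −0.53 with an unadjusted p of 0.0537, and NAGS, which makes its activator, was highest at 0.57. This list's median stayed between −0.55 and −0.24 without single libraries.

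The ATF4 amino acid stress list had the highest median of the 25 pathway lists, 0.53, with 11 of 14 tested members above 0, of 22 listed. None was called. There were 7 with an unadjusted p under 0.05 on the CPF side and 2 on the FS side, which is 9 of 14 beside 7.66% of all genes. Those on the CPF side included ASNS, PSPH (the last step of serine synthesis) at 1.24 with medians of 13.9 and 4.60 CPM, TRIB3 at 1.28, SLC3A2 (a subunit of amino acid transporters) at 0.64, and the factors ATF5 at 0.57 and ATF4 at 0.50. ATF3 was highest at 1.42, but this rested on CPF animal 8 at 329 CPM, since the other CPF libraries were at 11.6 to 29.3 CPM, and it was −0.65 without that animal. The 2 on the FS side were SESN2, which restrains growth signalling, at −1.02, and CTH, which makes cysteine, at −0.99. The median stayed at 0.23 to 0.64 without single libraries.

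Thyroid hormone handling and progestin receptors had 11 of 12 members tested and a median of 0.24. There were 4 at an unadjusted p under 0.05, all on the CPF side, beside 4.24% of all genes on that side. DIO2, which activates thyroid hormone, was at 3.56, 10.5, 9.69, 30.0 and 3.34 CPM in CPF animals 3, 7, 8, 13 and 18 and 0.16 to 14.6 CPM in FS, with a log2 fold change of 2.04 and an adjusted p of 0.475. PAQR7 was at 1.66, PAQR9 at 1.58 and the thyroid hormone receptor THRB at 0.71, and PAQR5 was lowest at −0.11.

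The lists of stress and inflammation had 0 called genes. The unfolded protein response and heat shock list had 21 of 22 tested members below 0 and a median of −0.36, from CRELD2 at −2.23 to DNAJA1 at 0.14. CRELD2, an endoplasmic reticulum protein, was at 429 CPM in FS animal 4 and 1233 CPM in FS animal 10 and at no more than 49.3 CPM in the other libraries. Without these 2 animals the list's median was 0.07, with 17 of 22 above 0. This setting was chosen after seeing the data and leaves out the animals highest in CRELD2, a member of the list. The change in the median is therefore not independent evidence, and its cause was not tested. The immediate early list had a median of 0.37, with IER2 highest at 0.99 and NR4A2 lowest at −1.11, and its median ran from −0.22 to 0.44 as single libraries were left out. Acute phase proteins had a median of −0.18, with LCN2 at 0.21 and STAT3, the factor that drives them, at −0.98. STAT3's log2 ratio of the means plus 1 CPM was −1.76, 0.31 and −1.04 within codes ending in 10, 12 and 09.

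In the remaining lists the medians were −0.13 for the circadian clock, where NR1D1 was lowest at −1.36 and BHLHE40 highest at 0.80, and −0.14 for targets of the hypoxia inducible factor, from P4HA1 at −0.74 to PFKFB3. The inflammatory cytokine list was at 0.03, with CXCL8 at 1.78 on medians of 0.76 and 0.20 CPM and PTX3 at −0.52, and the interferon-stimulated genes at 0.04, with IRF1 at 0.60 and OASL at −0.996. Glucocorticoid targets were at −0.02, from SGK1 at −0.52 to GADD45B at 0.79, and activins and the TGF beta family at 0.09, from FST at −0.87 to INHBE at 1.22. The cell cycle list was at −0.18, from CCNB2 at −0.54 to CCNE1 at 0.19, with 10 of 11 tested members below 0 and 0 at an unadjusted p under 0.05. That median was −0.08 without CPF animal 13, −0.44 without CPF animal 8 and 0.03 with the erythroid sum as a term. Bile acid and xenobiotic genes were at 0.06, from CYP1A1 at −2.82, where FS animal 14 alone was at 8590 CPM, to CYP2B6 at 1.02.

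**Figure D3:**
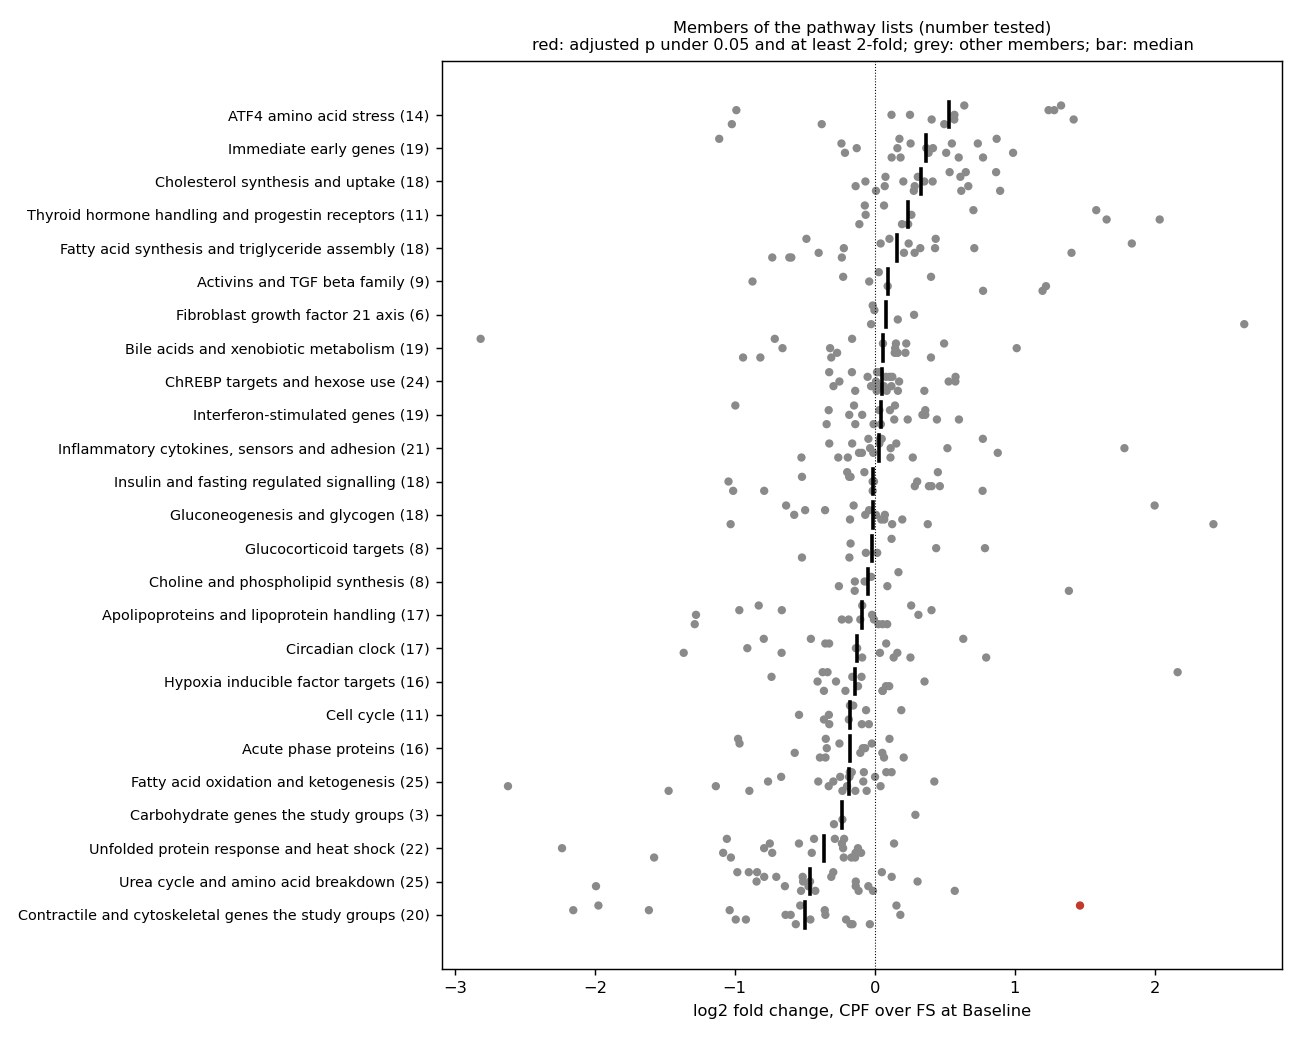
Log2 fold change, CPF over FS at Baseline, of the tested members of 25 pathway lists (points, red where called), with a bar at each list's median and the number tested in brackets. SHROOM3 at 1.47 is the red point, and the medians run from −0.50 for the contractile list to 0.53 for the ATF4 list.

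The study groups 28 contractile and cytoskeletal genes, and a few carbohydrate genes, from these samples, so neither list is independent evidence of its direction. Of the 28, 20 passed the filter in the 20 liver libraries, and 17 of them were below 0 with a median of −0.50. The filter sums CPM over both groups, so a member can pass through FS libraries where it is high. Such a member would lie below 0, so the count and median are not independent of the filter. In this list SHROOM3 was called, NEB (nebulin of the sarcomere) was at −2.15 with an unadjusted p of 0.0196, and no other member was under 0.05. NEB was scarcely counted, at no more than 0.45 CPM in CPF and 6.20 CPM in FS. Striated muscle markers, genes of the same kind as this list and so not independent of it, were uneven among the FS libraries. They summed to 15.7, 32.7, 3.89 and 13.2 CPM in FS animals 4, 6, 9 and 15, against at most 0.758 CPM in every CPF library and at most 0.726 CPM in the other FS libraries kept. ACTA1, the skeletal muscle actin, was at −4.33 with an unadjusted p of 0.0318. Without those 4 FS animals, a setting chosen after seeing the data, the median of the 14 members still tested was −0.07, with 6 of the 14 above 0, and the 3 calls at Baseline stood. These 4 animals were picked for their muscle markers, so the change in the median is not independent evidence, and its cause was not tested. The median was −0.33 without FS animal 6 alone and −0.32 without CPF animal 13. With all 18 FS libraries the median of the 20 was −6.25. The carbohydrate genes PYGM, ENO3 and GPD2 had a median of −0.23 with 15 FS libraries, 0.11 without FS animals 4, 6, 9 and 15, and −7.30 with 18. Adding the 3 libraries without albumin thus moved both medians far below 0.

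Markers of other cells were read in CPM of each library's total. Striated muscle markers summed to at most 0.758 CPM in CPF and 32.7 CPM in the FS libraries kept, against 27954 to 35027 CPM in the 3 left out. Erythroid markers overlapped, at 70.2 to 182 CPM in CPF with a median of 153 and at 83.5 to 850 CPM in FS with a median of 228. HBB, a haemoglobin chain, had a log2 fold change of −1.43 with an adjusted p of 0.486 in edgeR's quasi-likelihood test, and ALAS2 was at −1.34. These were the 2 tested members of the list. Both had an unadjusted p under 0.05 in that test, on the FS side, beside 3.41% of all genes on that side. With the erythroid sum as a term in the fit, a setting chosen after seeing the data, 5 genes were called, including all 3. Of the mesothelium and capsule list, CALB2 was at 0 in all 20 libraries, and the sum, mostly KRT8, was 3046 CPM in FS animal 4, 3409 CPM in FS animal 10 and 1830 CPM in CPF animal 7, against 284 to 1020 CPM in the rest. Without FS animals 4 and 10 there were 22 calls, including all 3, in a further setting chosen after seeing the data.

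The other marker lists overlapped between the groups as well. Kupffer cell and macrophage markers summed to 325 to 463 CPM in CPF and 296 to 520 in FS, with CLEC4F at 0 in all libraries. Endothelial markers were at 206 to 372 and 162 to 469 CPM, stellate cell and fibroblast markers at 464 to 1153 and 442 to 1640, and cholangiocyte markers at 44.5 to 75.4 and 29.7 to 119. T and NK cell markers were at 27.7 to 71.8 and 25.4 to 57.3 CPM and smooth muscle markers at 104 to 160 and 94.6 to 218, with MYH11 at 0. B and plasma cell markers reached 6.39 and 16.7 CPM and neutrophil markers 3.82 and 15.3 CPM, with CSF3R at 0. Adipocyte markers reached 11.5 and 18.1 CPM, and pancreas and gut epithelium markers 33.9 and 23.04 CPM.

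At the later biopsies of the same animals the quasi-likelihood test called 1 gene in all between the feeding groups. There were 0 of 11567 genes at FR2 and 0 of 11807 at FR8 (0% at both), where 591 and 589 genes had an unadjusted p under 0.05 (5.11% and 4.99%), DESeq2 called 0 and 4, and the likelihood ratio test 2 and 2. At FR20, 1 of 12195 genes was called (0.0082%), with 757 at an unadjusted p under 0.05 (6.21%), where DESeq2 called 8 and the likelihood ratio test 11. That gene, ENSSSCG00000024853, was at 381 to 2703 CPM in 5 CPF and 326 to 757 CPM in 15 FS libraries, with a log2 fold change of 1.91 (standard error 0.26) and an adjusted p of 0.00230 by edgeR's quasi-likelihood test. FR8 held 4 CPF libraries, since that of animal 3 held 4388 counts in all and was left out. In the FR2 and FR8 libraries of FS animal 11, 415 of 4310 and 461 of 4606 genes with a median over 20 CPM were at 0, and leaving that animal out left 0 calls at both.

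NADK2 and SHROOM3 were followed through the later biopsies. NADK2 was at medians of 149 and 63.2 CPM at FR2, a log2 fold change of 1.09 (unadjusted p = 0.0019, adjusted p = 0.873 in edgeR's quasi-likelihood test). It was at 191 and 145 at FR8 with 0.68 (unadjusted p = 0.0362, adjusted p = 0.9999), and at 158 and 167 at FR20 with 0.17 (adjusted p = 0.974). At FR20 the median was lower in CPF but the mean was higher, 207 against 184 CPM. SHROOM3 had log2 fold changes of 0.10, 0.16 and −0.09 at the 3 times and GPAM of 0.22, 0.48 and −0.05. SLC22A7 was at 1.32 at FR2 with medians of 488 and 173 CPM, and CA2 at 1.19 with 88.8 and 31.2 CPM. Neither was called in that test (unadjusted p = 0.00618 and 3.87e-04, adjusted p = 0.890 and 0.546). Whether the difference at Baseline exceeds that at a later time was not tested.

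**Figure D4:**
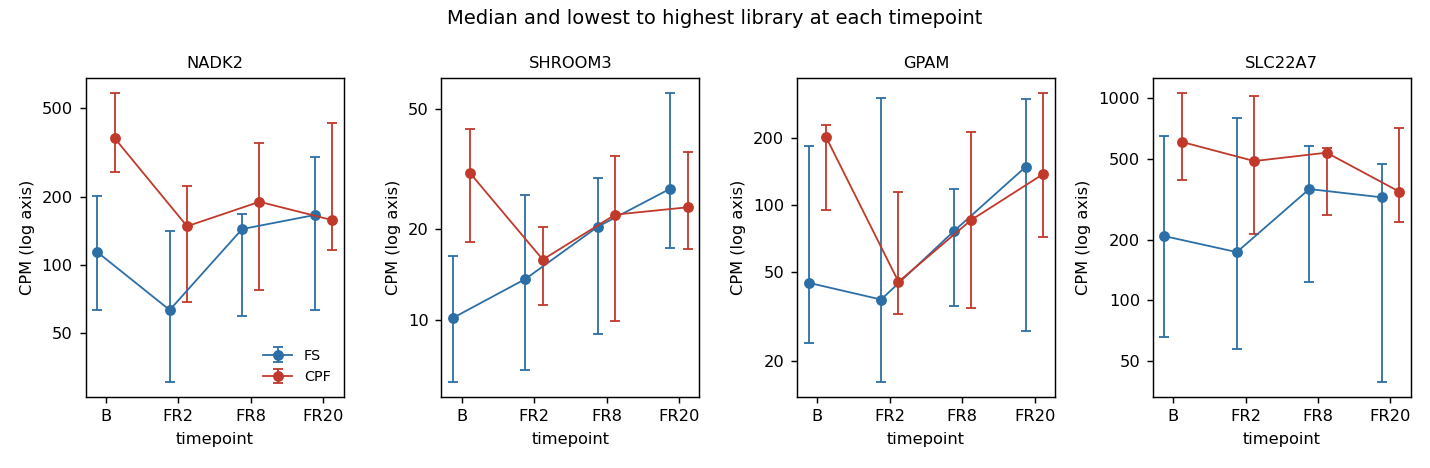
Median CPM scaled by TMM within each timepoint (points, log axis), with bars from the lowest to the highest library, in FS (blue, 15 animals) and CPF (red, 5 animals, 4 at FR8) for NADK2, SHROOM3, GPAM and SLC22A7. At Baseline the ranges overlap for GPAM and SLC22A7 but not for NADK2 and SHROOM3, and from FR2 on they overlap for all 4 genes.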

How the data were processed

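Raw read counts per gene were deposited as 1 table of whole-number counts. Per the study's methods and the submitters' processing notes, the authors made them with CASAVA 1.8.2, TopHat 1.5.0, SAMtools and HTSeq on Sscrofa10.2, from oligo-dT libraries. How HTSeq treated strand and ambiguous reads is not given in the sources used here, so overlapping and near-identical genes are uncertain. Of 25322 identifiers, 11804 took a symbol from the gene name table and 700 from the study's tables.

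Genes with a summed CPM of at least 10 were kept, scaled by TMM and tested with edgeR 4.0.16 (quasi-likelihood, feeding group as the term, Benjamini-Hochberg) in R 4.3.3, each timepoint separately, with no pairing since CPF and FS are different animals. Levels are CPM over the tested genes. Alternatives used DESeq2 1.42.0 and limma 3.58.1. The quasi-likelihood test, the likelihood ratio test, DESeq2 and limma-voom were tried on counts simulated for the Baseline comparison. Counts cover counting error only. Members, lists and tests were chosen with earlier results of these data known. Named genes were those called, the gene with the adjusted p alone, and those called by both DESeq2 and the likelihood ratio test. They also took in the 8 genes of sugar and lipid metabolism and the highest and lowest tested member of each pathway list. 1 called gene is not reported here and was left out of the lists and plots. Where several identifiers shared a symbol, the one with the most counts was used.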

Additional observations from a re-analysis of the deposited data

Results flagged for a closer look

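In 10 of 70 named genes, 1 of the 5 CPF libraries at Baseline stood far from the other 4 on the log2(CPM + 1) scale (Dixon's ratio above its critical value). Chance flags about 1 in 20 groups of values, but that rate does not apply here, since genes named as called or as a list's highest or lowest can be so because of 1 library. Of the 10, 5 were in CPF animal 13, which was far above the rest in CHKA at 103 CPM (others 31.7 to 42.1) and in ENSSSCG00000029075 at 28.2 CPM (others 4.46 to 7.78). The same animal was far below in PCK1 at 101 CPM (others 1342 to 3205), in INSIG1 at 97.3 CPM (others 703 to 1399) and in P4HA1 at 19.1 CPM (others 85.2 to 108). CPF animal 18 was low in GPAM at 95.3 CPM (others 195 to 230) and high in SGK1 at 259 CPM (others 79.6 to 91.7). CPF animal 8 was high in ATF3 at 329 CPM (others 11.6 to 29.3) and in CCNB2 at 2.48 CPM (others 0.61 to 0.85), and CPF animal 3 was high in LCN2 at 15.8 CPM (others 0.48 to 0.92).

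The 3 FS libraries left out at Baseline held striated muscle markers at 27954 to 35027 CPM of their totals, against at most 0.758 CPM in the CPF libraries.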

How the results depend on the processing

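No paired analysis was possible because CPF and FS libraries come from different animals. The 3 Baseline calls, with NADK2 and SHROOM3 among them, were kept under 15 of the 16 other settings, and with all 18 FS libraries 1 call was left. The count of calls was 31 with DESeq2, 25 with the likelihood ratio test, 14 with limma-voom and quality weights, 7 with survival as a term, 5 with no filter and 5 with code ending as a term. Chosen after seeing the data, leaving out FS animals 4 and 10 gave 22, leaving out 4, 6, 9 and 15 gave 3, and the erythroid sum as a term 5. Leaving out single libraries gave 3 to 18 calls at Baseline (18 without FS animal 20), 0 to 2 at FR2 (2 without FS animal 20), 0 to 1 at FR8 (1 without FS animal 20) and 1 to 3 at FR20 (3 without CPF animal 3 or 18). At FR2 the likelihood ratio test called 2, at FR8 DESeq2 called 4 and the likelihood ratio test 2, and at FR20 these tests called 8 and 11, against 0 with all 18 FS animals. Over all named genes and alternatives at Baseline, 2366 log2 fold changes kept their direction and side of the threshold, 98 became called, 2 were no longer called and 49 changed sign.

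Signs turned in genes that were not called, and the cause was not tested. With all 18 FS libraries the log2 fold change was −7.30 for PYGM (−1.34 in the exact permutation test), 0.13 for INSIG1, 0.23 for FGFR3, 0.013 for BHMT, 0.12 for PAQR5, −0.26 for BHLHE40, −0.69 for LCN2, −0.25 for DNAJA1 and −0.14 for CCNE1. In animals that lived it was 0.10 for INSIG1, 0.028 for BHMT, −0.88 for ATF3, −0.10 for IER2, 0.42 for SGK1, −0.32 for BHLHE40 and −0.16 for DNAJA1. With limma-voom it was 0.0040 for ENO3, 0.44 for FGFR3, 0.085 for SGK1 and −0.14 for LCN2. With code ending as a term it was 0.40 for FGFR3, 0.15 for PAQR5 and −0.25 for LCN2, with the erythroid sum 0.038 for GPD2, −1.42 for LCN2 and −0.16 for DNAJA1, without FS animals 4 and 10 it was 0.28 for FGFR3 and 0.14 for CRELD2, and without FS animals 4, 6, 9 and 15 it was 0.11 for ENO3 and −0.027 for LCN2. Without single libraries it ran from −0.073 to 0.57 for ABCA1, −0.65 to 1.70 for ATF3, −0.22 to 1.27 for CYP2B6, −0.17 to 0.15 for FGFR3, −0.10 to 1.20 for IER2, −0.43 to 2.21 for INHBE, −0.49 to 0.15 for INSIG1, −2.06 to 1.51 for LCN2 and −0.54 to 0.15 for PAQR5.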
